A study of Mus musculus with 28 samples.

Results

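Immediate early genes are genes whose transcription starts within minutes of a stimulus without new protein being made. The set described here was 10 of the 23453 genes in the exonic count table, namely Fos, Fosb, Jun, Junb, Egr1, Arc, Npas4, Nr4a1, Ier2 and Bdnf. They were chosen by name and by no cut-off on a measured value, with earlier results of these data known. All 10 were listed in the exonic table, and 7 of them also in the intronic table of 20422 genes, where Jun, Junb and Ier2 were not listed.

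RNA of 28 single cells of mouse cortex was sequenced, and reads were counted over exons and over introns of each gene. By their labels, 12 cells were neurons and 8 were astrocytes, both of genotype C57/BL6, grown in primary culture and harvested by pipette, and 8 were interneurons of genotype C57/BL6/N, harvested by patch clamp pipette from acute slices. Libraries of the cultured cells were made with a TruSeq Nano DNA kit and run on a NextSeq 500, and those of the slice cells with a TruSeq Stranded kit and run on a HiSeq 2500, so that culture against slice and one library preparation against the other cannot be told apart. No label named a stimulus, an animal or a culture for any cell. For the mouse cultures the study's methods describe dispersed embryonic cells mixed from both sexes, whereas the labels' protocol for cultured cells describes perfusion and sectioning of a 3-month-old male mouse. Slices stood for 1 hour in oxygenated cerebrospinal fluid at room temperature before cells were recorded and collected.

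The columns of the tables carry codes that occur in no label, so 0 of the 28 columns were matched to a sample and none was given a cell type. The columns are described in 3 blocks of codes. The 8-column BRP block holds BRP564 and BRP566 to BRP572, the 12-column BRP block holds the other codes that begin with BRP, and the F block holds the 8 codes that begin with F. Since no column belongs to a labelled group, values are given per column, or as lowest, median and highest, with no test and no replicate error.

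In neurons, calcium entry through synaptic receptors and voltage-gated channels switches these genes on through the factors CREB, SRF with its ELK partners, and MEF2. Fos and Jun proteins pair into AP-1, a transcription factor that also answers growth factors and stress in glia and most other cells. Egr1, Npas4 and Nr4a1 encode further transcription factors, Arc acts at the synapse on glutamate receptor uptake, and Bdnf is a secreted growth factor that signals through the receptor TrkB, encoded by Ntrk2.

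Exonic counts per column ranged from 12969692 to 19798892 in the 8-column BRP block, from 17483754 to 26770944 in the 12-column BRP block, and from 838343 in F16 to 14831505 in the F block. Levels are given as exonic counts per 1000000 exonic counts of the column (CPM). A count of 0 allows a level of up to 3 counts, which was 0.112 to 0.231 CPM in BRP columns and 0.202 to 3.58 CPM in F columns. Intervals and such limits cover counting error only, because the reads are amplified copies. Between 9869 and 12815 genes had an exonic count in BRP columns, against 2338 to 7218 in F columns.

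Marker genes of cell types are given to describe the blocks. The blocks were chosen with earlier results of these data known, so the markers are no independent check of them. The 8 neuron markers summed to 311 to 801 CPM in the 8-column BRP block, 4900 to 11070 CPM in the 12-column BRP block and 1608 to 17800 CPM in the F block. Of the 9 astrocyte markers, 4 were higher in every column of the 8-column BRP block than in every column of the 12-column BRP block. The same held for 4.29% of all genes with at least 1000 exonic counts over the 28 columns. The water channel gene Aqp4 reached 652 to 2062 CPM against 0 to 418 CPM. The glutamate transporter gene Slc1a2 alone of the 9 had the higher median in the 12-column block, 804 CPM against 192 CPM, and the whole list summed to 2674 to 7155 CPM in the 8-column block and 208 to 2463 CPM in the 12-column block. Across F columns the astrocyte list summed to 1.19 to 4363 CPM. Aldh1l1 and S100b were at 0 there and Aqp4, Slc1a3 and Gfap did not exceed 1.38 CPM, but Slc1a2 reached 4350 CPM in F7, Sox9 1180 CPM in F12, Aldoc 556 CPM in F24 and Gja1 183 CPM in F2. The 6 oligodendrocyte markers summed to 547 to 1305 CPM in the 8-column block, 0.517 to 1004 CPM in the 12-column block and 0 to 3387 CPM in the F block, mostly from the lineage factor gene Olig1, which reached 3210 CPM in F7, while the myelin genes Mog and Mag did not exceed 0.115 CPM in any column. The 10 GABAergic markers summed to 26.6 to 190 CPM in the 8-column block, 0.538 to 3461 CPM in the 12-column block and 565 to 11886 CPM in the F block. Within the F block the GABA synthesis gene Gad1 ranged from 0.739 CPM in F12 to 8713 CPM in F6. The median over F columns was 2754 CPM for Gad1, 531 CPM for Slc32a1 and 10.2 CPM for Gad2. It was at most 0.998 CPM for each other marker of that list. Endothelial Cldn5 was at 0 in all 28 columns and the microglial C1qa did not exceed 1.74 CPM, but F16 held 2093 CPM of the microglial receptor gene Csf1r. BRP528 stood apart from the other columns of the 12-column BRP block. Its GABAergic markers summed to 3461 CPM, against 409 CPM in the next column, BRP541, and its glutamatergic markers to 0.598 CPM, against 277 to 1139 CPM in the other 11. BRP528 also held 142 CPM of Aqp4 and 396 CPM of S100b, and BRP529 held 418 CPM of Aqp4, 283 CPM of the glutamate transporter gene Slc1a3 and 831 CPM of Olig1. Values without BRP528 and BRP529 are given where they change a count or move a median by over 1.5 times.

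The stretches before the transcription starts are shown because several members carry the core of the cAMP response element, the sequence that CREB binds. RefSeq promoter windows on GRCm38.p6, each of 250 bases before and 50 bases after a start, were matched by symbol for 7 of the 10 members and 13 starts, 7 of them of Bdnf. The letters TGACG, searched on both strands and including those inside the full element TGACGTCA, lay in windows of 6 of these 7 members and in 6 of the 13 windows, against 20.8% of all 32851 windows. Nr4a1 held 4 copies, Fos and Npas4 2 each, Fosb and Junb 1 each, and Bdnf 1 copy in 1 of its 7 windows. No window of a member held the full TGACGTCA, which lay in 1.79% of all windows, or a CArG box, the site of SRF, which lay in 1.63%. Egr1, Arc and Ier2 had no matched window, and bases further than 250 before a start were not searched. The windows therefore cannot show that a member lacks such sites. TATAAA lay in the windows of Fos and Junb and in 13.6% of all windows. A match describes letters in these windows and does not show binding. The 150 bases before the start follow for the AP-1 genes Fos, Junb and Jun, for Nr4a1, the member with most copies, and for the Bdnf start that holds a copy, with TGACG, its complement CGTCA, and TATAAA in capitals.
Fos, chr12:85473740-85473889, plus strand: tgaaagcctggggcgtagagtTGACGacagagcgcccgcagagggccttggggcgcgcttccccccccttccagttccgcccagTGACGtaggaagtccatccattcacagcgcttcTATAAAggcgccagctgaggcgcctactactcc
Junb, chr8:84978749-84978898, minus strand: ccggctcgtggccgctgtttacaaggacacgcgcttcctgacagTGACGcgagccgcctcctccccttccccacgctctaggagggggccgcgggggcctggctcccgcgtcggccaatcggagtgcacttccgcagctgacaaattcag
Jun, chr4:95052223-95052372, minus strand: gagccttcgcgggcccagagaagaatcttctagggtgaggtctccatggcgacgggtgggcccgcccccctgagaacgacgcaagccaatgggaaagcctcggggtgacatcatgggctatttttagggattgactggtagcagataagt
Nr4a1, chr15:101266696-101266845, plus strand: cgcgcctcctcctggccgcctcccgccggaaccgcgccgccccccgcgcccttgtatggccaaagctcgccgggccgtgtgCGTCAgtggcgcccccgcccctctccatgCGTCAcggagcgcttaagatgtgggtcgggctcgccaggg
Bdnf, chr2:109692286-109692435, plus strand: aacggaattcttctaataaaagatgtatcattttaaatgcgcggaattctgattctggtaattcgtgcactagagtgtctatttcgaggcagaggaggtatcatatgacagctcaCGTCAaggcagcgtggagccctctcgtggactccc
In the Fos stretch TGACG stands before and after the middle and TATAAA stands close to the start. In the Junb stretch a single TGACG is marked, since its TATAAA lies elsewhere in the window. The Jun stretch holds neither sequence. The Nr4a1 and Bdnf stretches hold the motif on the strand opposite to the gene.

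Fos, at chr12:85473890-85477273 on the plus strand of GRCm38, ranged from 17.6 to 161 CPM in the 8-column BRP block with a median of 110 CPM. It ranged from 18.0 to 372 CPM in the 12-column BRP block with a median of 133 CPM. The blocks overlapped, and 5 of the 12 columns, BRP529, BRP534, BRP537, BRP538 and BRP540, at 225 to 372 CPM, lay above every column of the 8-column block. Fos in the F block was at 25111 CPM in F24, 7146 CPM in F2, 2033 CPM in F7, 1756 CPM in F1 and 5.47 CPM in F11, and at 0 in F6, F12 and F16. In CPM the F columns therefore lay either above every BRP column, in 4 of 8, or below every BRP column, in the other 4. The scaling of libraries changed this for F11, which had 24 Fos counts, while F1, F2, F7 and F24 were above every BRP column on each scale and F6, F12 and F16 stayed at 0. F11 was at 68.1 with TMM factors, inside the BRP range of 12.7 to 283, and at 82.9 with DESeq2 size factors, inside 15.5 to 374. Over all genes, edgeR's TMM factors moved the F block by a median of 0.92 on the log2 scale and DESeq2's size factors by 2.29, both upwards, against -0.57 and -0.41 in the 8-column BRP block. Per kilobase of exon, Fos ranked first of the 3500 genes with a count and a gene model in F24 and 6th of 6804 in F2.

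**Figure D1:**
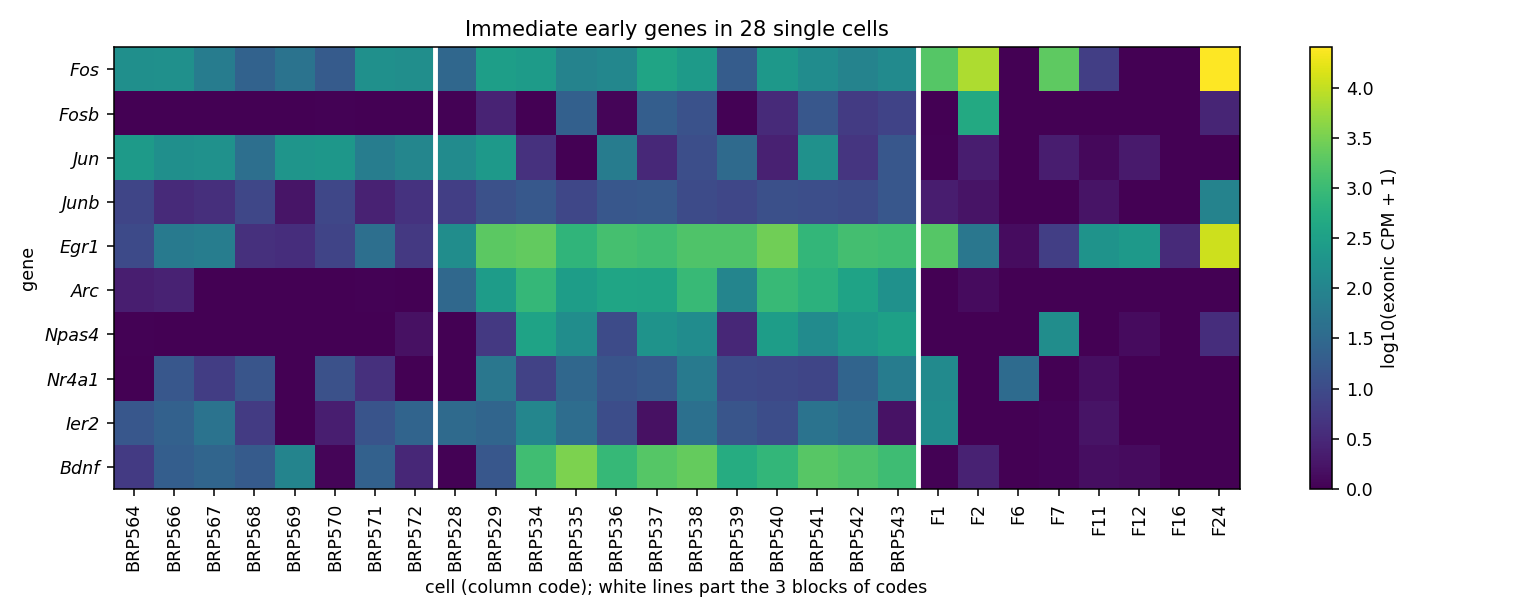
Levels of the 10 genes in each of the 28 columns, as log10(exonic CPM + 1) by colour, with genes in rows and columns grouped by code block between white lines. Fos and Egr1 are brightest in F24, at 25111 and 11560 CPM, and Arc, Npas4 and Bdnf are brightest in the 12-column BRP block.

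Fosb, the paralog of Fos whose product also enters AP-1, lies at chr7:19302696-19310051 on the minus strand. It was nearly absent from the 8-column BRP block, where BRP570 held its only count. Fosb in the 12-column BRP block ranged from 0 to 21.8 CPM with a median of 3.53 CPM, and 11 of 12 columns had a count. The median was 5.70 CPM without BRP528 and BRP529. Among F columns Fosb reached 469 CPM in F2 and 1.89 CPM in F24 and was at 0 in the other 6. High Fos thus came with high Fosb in F2, whereas F24, with more Fos, had 4 Fosb counts.

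Jun, the partner of Fos in AP-1 and a target of the stress kinase JNK, lies at chr4:95049034-95052222 on the minus strand. It ranged from 39.9 to 247 CPM in the 8-column BRP block with a median of 159 CPM. Jun in the 12-column BRP block ranged from 0 CPM in BRP535 to 244 CPM in BRP529 with a median of 12.4 CPM, or 7.05 CPM without BRP528 and BRP529. The highest 4 of these columns, BRP529, BRP541, BRP528 and BRP536, held 70.2 to 244 CPM, and the other 8 held at most 32.7 CPM. Jun did not exceed 1.27 CPM in any F column. F24, which had the most Fos, held no Jun count, so its Jun level was at most 1.42 CPM by the limit of 3 counts.

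Junb, an AP-1 member of the Jun family, lies at chr8:84974484-84978718 on the minus strand and ranged from 0.771 to 7.73 CPM in the 8-column BRP block with a median of 3.10 CPM. Across the 12-column BRP block it ranged from 5.43 to 15.8 CPM with a median of 10.6 CPM. The overlap of the blocks rested on BRP528, the lowest of the 12, since the next column held 7.76 CPM, just above the highest of the other block. In F24 Junb was at 90.7 CPM, and in the other 7 F columns at 0 to 1.28 CPM. The Junb model overlaps Prdx2 on the opposite strand and the Jun model overlaps the antisense gene Junos. No strand setting of the counting is stated, so reads of these neighbours cannot be told from those of Junb and Jun.

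Egr1, a zinc finger transcription factor, lies at chr18:34859823-34864984 on the plus strand and was the only member with a count in all 28 columns. Of all genes with at least 1000 exonic counts over the 28 columns, 1.92% had a count in each. Egr1 ranged from 2.78 to 71.9 CPM in the 8-column BRP block with a median of 7.85 CPM. Egr1 in the 12-column BRP block ranged from 144 CPM in BRP528 to 2794 CPM in BRP540 with a median of 1234 CPM, and every column lay above every column of the 8-column block. The next lowest of the 12 was BRP535 at 760 CPM. Egr1 in the F block was at 11560 CPM in F24, 1719 CPM in F1, 230 CPM in F12, 181 CPM in F11 and 53.6 CPM in F2, and at 0.415 to 5.52 CPM in F6, F7 and F16. F7 and F2, with high Fos, were therefore low in Egr1, and F11 and F12, with little or no Fos, were higher in it. Only F24 and F1 were high in both.

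**Figure D2:**
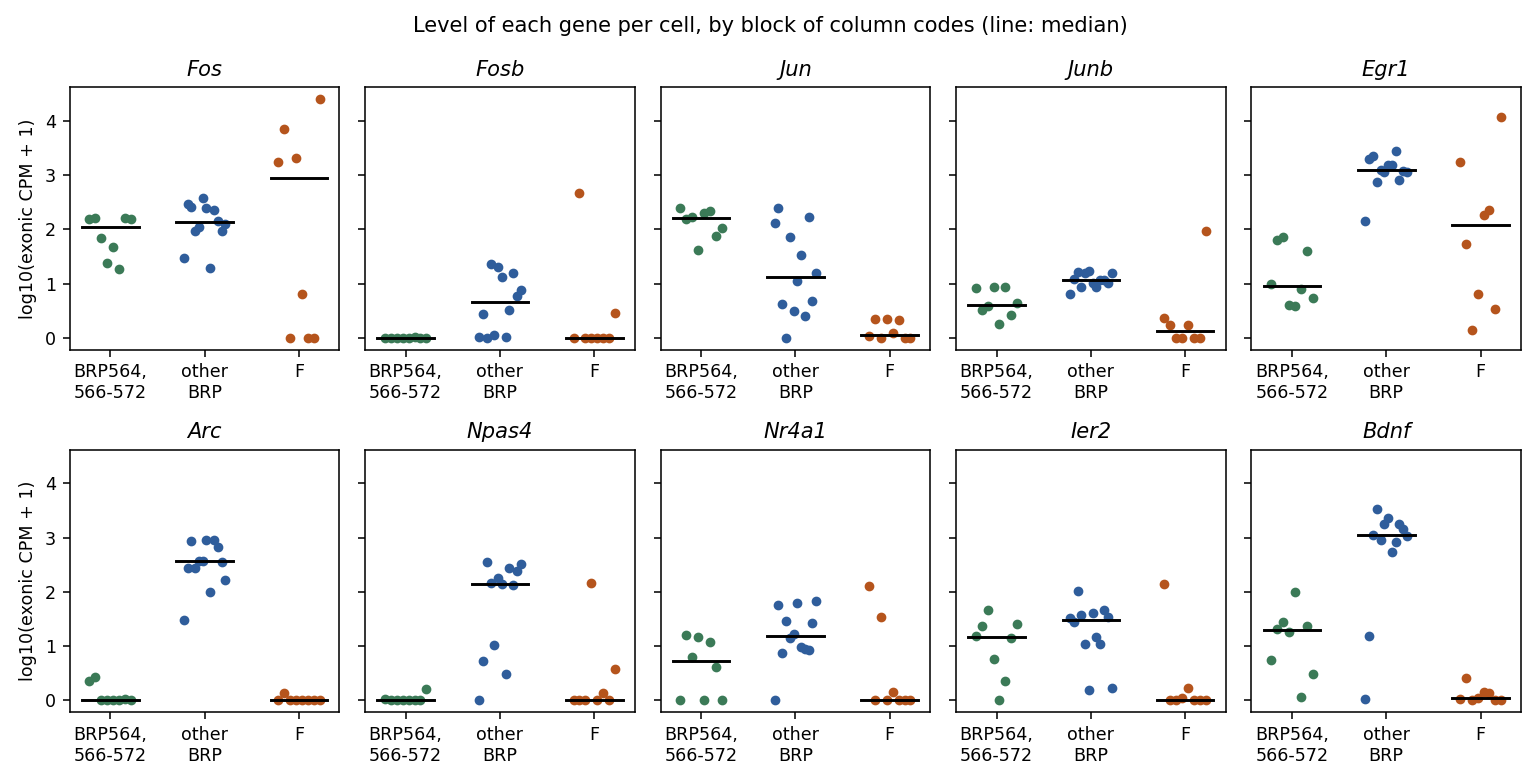
Level of each gene per column as log10(exonic CPM + 1), with points for columns of the 3 code blocks and a line at the block's median. Egr1 and Arc do not overlap between the BRP blocks, Jun lies lower in most of the 12-column block, and F points are spread from 0 to the highest values of all for Fos and Egr1.

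Npas4, a bHLH-PAS transcription factor that in neurons answers calcium entry rather than growth factors, lies at chr19:4984355-4990316 on the minus strand. It had counts in 2 of the 8 columns of the 8-column BRP block, at most 0.597 CPM. Npas4 in the 12-column BRP block ranged from 0 to 355 CPM with a median of 140 CPM. Its low columns were BRP528 at 0, BRP539 at 2.05 CPM, BRP529 at 4.43 CPM and BRP536 at 9.28 CPM, and the other 8 held 133 to 355 CPM. The split in the 12 columns was thus wide, with no column between 9.28 and 133 CPM. Among F columns Npas4 was at 144 CPM in F7 and at most 2.84 CPM elsewhere.

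Nr4a1, an orphan nuclear receptor, lies at chr15:101254269-101274795 on the plus strand. It ranged from 0 to 14.9 CPM in the 8-column BRP block with a median of 4.24 CPM and from 0 to 68.1 CPM in the 12-column BRP block with a median of 14.5 CPM. The BRP blocks overlapped for Nr4a1. F1 held 128 CPM, F6 33.7 CPM and F11 0.456 CPM of Nr4a1, and the other 5 F columns none. In F6 Nr4a1 made up nearly all counts of the set, 406 counts beside 5 of Egr1.

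Ier2, an intronless gene at chr8:84661331-84662852 on the minus strand that encodes a nuclear protein induced early by growth factors, ranged from 0 to 46.2 CPM in the 8-column BRP block with a median of 13.8 CPM. In the 12-column BRP block it ranged from 0.560 to 104 CPM with a median of 29.5 CPM, so the blocks overlapped. Without BRP528 and BRP529 that median was 23.3 CPM, and its distance from the median of the 8-column block fell from 15.7 to 9.53 CPM. F1 held 138 CPM of Ier2, and the other F columns at most 0.683 CPM. F1 was the highest of the 28 columns for both Ier2 and Nr4a1.

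Arc, whose protein is made at active synapses, lies at chr15:74669083-74672570 on the minus strand. It had counts in 3 of the 8 columns of the 8-column BRP block, at most 1.66 CPM. Arc in the 12-column BRP block ranged from 29.4 CPM in BRP528 to 912 CPM in BRP538 with a median of 367 CPM, and the blocks did not overlap. Arc had 2 counts in the F block, both in F2. F24 and F1, the columns with the highest Fos and Egr1 together, held no Arc count, which allows at most 1.42 CPM in F24 and 0.202 CPM in F1.

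Bdnf, at chr2:109674700-109727007 on the plus strand, ranged from 0.152 to 96.9 CPM in the 8-column BRP block with a median of 18.7 CPM. In the 12-column BRP block it ranged from 0.0498 to 3394 CPM with a median of 1106 CPM. BRP528 held 1 Bdnf count and BRP529 14.5 CPM, and the other 10 columns held 535 to 3394 CPM, all above the 8-column block. Bdnf had 14 counts in the F block in all and did not exceed 1.63 CPM there. Bdnf, Arc and Jun, each at most 1.63 CPM, were at or near 0 throughout the F block.

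Compared per kilobase of exon, the order of the medians differed between blocks. In the 12-column BRP block Egr1 led with 275 CPM per kb, followed by Bdnf with 178, Arc with 120, Fos with 56.5 and Npas4 with 34.0 CPM per kb. Egr1, Bdnf and Arc overlapped across these columns, from 32.1 to 623, 0.00801 to 546 and 9.63 to 298 CPM per kb, so the order of neighbours is not separated by the spread. In the 8-column BRP block Jun led with 49.8 CPM per kb and Fos followed with 46.9, and these overlapped from 12.5 to 77.6 and 7.49 to 68.6 CPM per kb. Ier2 came next there with 9.06 CPM per kb, and Arc, Npas4 and Fosb had medians of 0. In the F block the median was 374 CPM per kb for Fos and 26.1 for Egr1, and at most 0.148 for the other 8. Medians of the F block depended on the scaling, since that of Fos was 880 CPM, 1292 with TMM factors and 3350 with DESeq2 size factors, and that of Egr1 117 CPM, 298 and 732.

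Summed over the 10 genes, the level was 110 to 439 CPM in the 8-column BRP block. In the 12-column BRP block it was 372 CPM in BRP528 and 2244 to 5312 CPM in the other 11. The F block spanned both ends of the data, with 2.39 CPM in F16, 34.1 in F6, 189 in F11, 232 in F12, 2184 in F7, 3742 in F1, 7673 in F2 and 36766 CPM in F24. In F24 the 10 genes took 3.68% of exonic counts (95% exact binomial interval 3.65% to 3.70%). The F columns with the smallest sums were not all the shallowest, since F6 had 12043599 exonic counts and F24 2116359. The number of members with a count was 5 to 8 in the 8-column BRP block, 8 to 10 in the 12-column BRP block and 1 to 7 in the F block. After each column was thinned to 800000 counts these ranges were 4 to 8, 6 to 10 and 1 to 6. The fewer members in F columns were near the general rate. The median number of F columns with a count was 3.5 for the members and 3 for genes with at least 1000 exonic counts over the 28 columns. For BRP columns it was 19 for both.

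**Figure D3:**
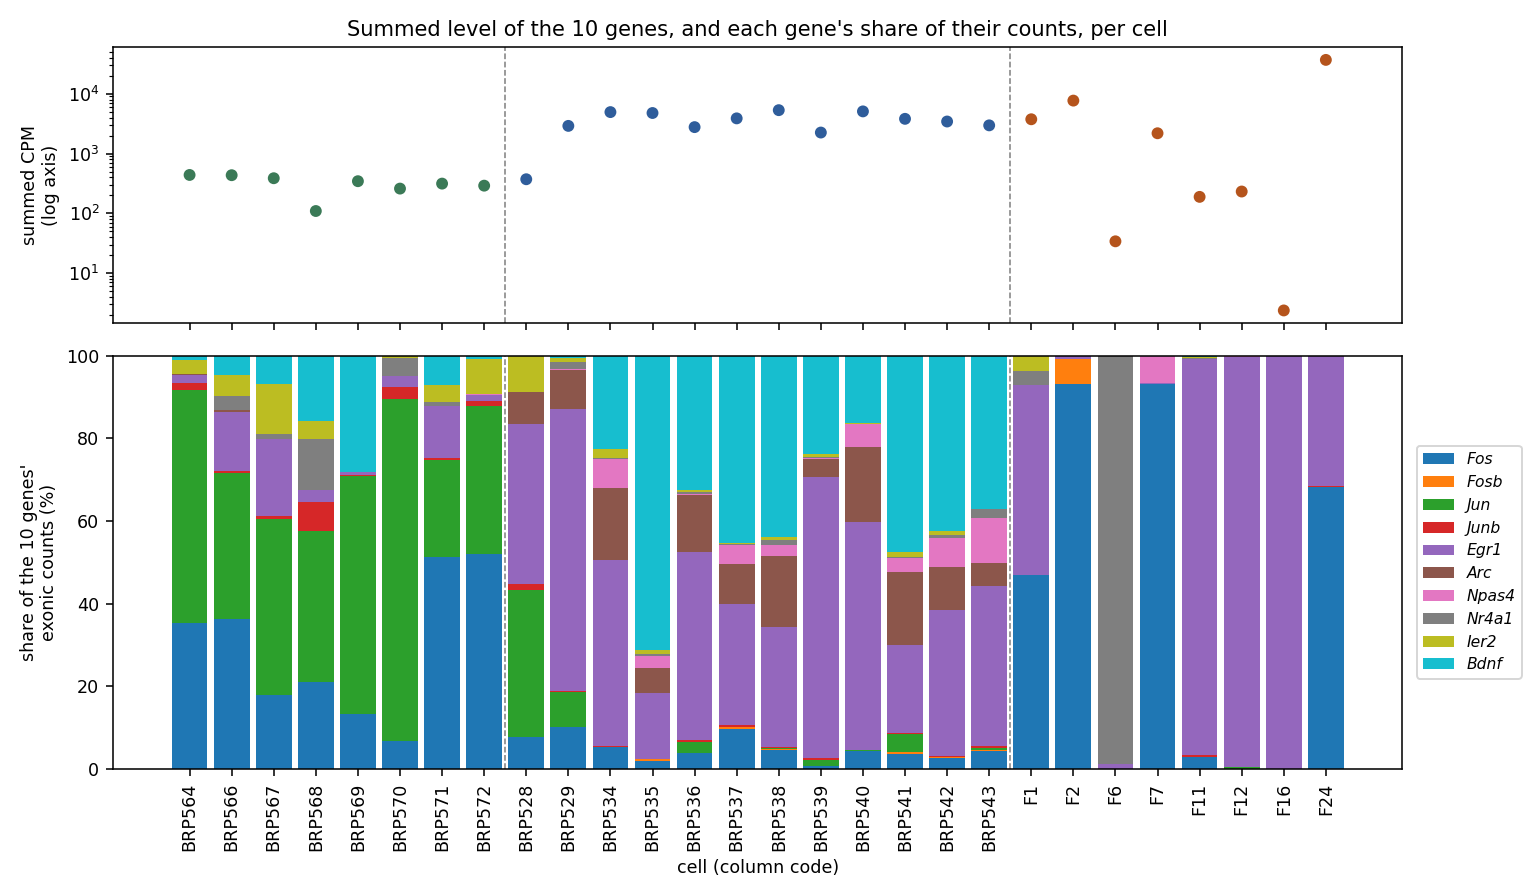
Upper panel, summed exonic CPM of the 10 genes per column on a log axis, and lower panel, each gene's percentage of the set's exonic counts in that column. Sums run from 2.39 CPM in F16 to 36766 CPM in F24, and the main share is Jun or Fos in the 8-column BRP block, Egr1 or Bdnf in most of the 12-column block, and mostly Fos or Egr1 in the F block.

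By levels per kilobase, the leading member was Jun or Fos in all 8 columns of the 8-column BRP block. In the 12-column BRP block it was Egr1 or Bdnf in 11 columns and Jun in BRP528. In the F block it was Fos in F1, F2, F7 and F24, Egr1 in F11 and F12, and Nr4a1 in F6. F16, with 2 counts of the set, both of Egr1, was below the limit of 3 counts and was given no leading member. The plot of sums and shares shows this change of the leading gene between blocks, and that 1 or 2 genes held most of the counts in each of the other 7 F columns.

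The question whether members separate the BRP blocks was read against all genes with at least 1000 exonic counts over the 28 columns, 11732 in number, which include all 10 members. For 2 members, Egr1 and Arc, every column of the 12-column block was above every column of the 8-column block. The same held for 3.48% of the 11732 genes. For 0 members was the 8-column block above throughout, against 4.29% of genes. Without BRP528 and BRP529 the count was 5 members, Junb, Egr1, Arc, Npas4 and Bdnf, against 5.23% of genes, and without BRP528 alone it was 4, with Bdnf not among them, against 4.37% of genes. These counts of 5 and 4 were taken in CPM only. Junb entered both by a narrow margin, at 7.76 CPM in BRP535 against 7.73 CPM in BRP570. The counting intervals of these values, 6.62 to 9.04 CPM and 6.55 to 9.05 CPM, overlapped. In the 8-column block Jun had the higher median, and in the 12-column block all other 9 members did, against 57.7% and 39.9% of the 11732 genes. With neuron markers at 4900 CPM or more in the 12-column block and at most 801 CPM in the other, the part of cell makeup in these differences was not tested.

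Within the 12-column BRP block, Spearman's rho of log2(CPM + 1) was computed for all 45 pairs of members. These columns share their block of codes and hold 17483754 to 26770944 exonic counts each, and rho is given as a description. The median was 0.18, from -0.68 to 0.76, and 27 of 45 pairs were above 0. The highest were Fosb with Bdnf and Fos with Junb, both at 0.76, followed by Fos with Arc at 0.56. The lowest was Jun with Npas4 at -0.68, and Jun with Bdnf was at -0.50. Without BRP528 and BRP529 the median was 0.0061, Fosb with Bdnf was at 0.79, Fos with Junb at 0.75, Fos with Arc at 0.68, Jun with Npas4 at -0.55 and Jun with Bdnf at -0.25, and the lowest pair was Fosb with Egr1 at -0.77. Pairs were thus spread over both signs. In the 8-column BRP block 21 pairs had at least 10 counts of both genes in at least 50% of columns, with a median rho of -0.024, from -0.83 for Junb with Bdnf to 0.69 for Egr1 with Ier2. Over the 20 BRP columns together 36 pairs had a median of 0.44, a value that also holds the difference between the blocks. In the F block a single pair met the minimum, Fos with Egr1, at 0.51 over 8 columns.

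**Figure D4:**
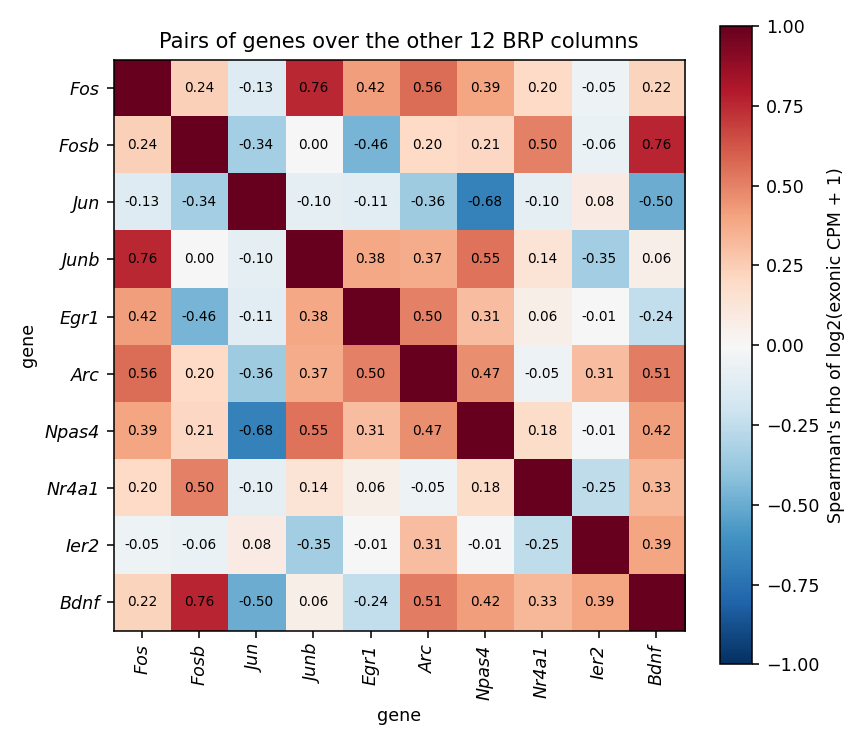
Spearman's rho of log2(exonic CPM + 1) for each pair of the 10 genes over the 12 columns of the 12-column BRP block, with red for positive and blue for negative values. Fosb with Bdnf and Fos with Junb are highest at 0.76, and the Jun row is mostly blue, down to -0.68 with Npas4.

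The genes with the most similar pattern were looked up over the 20 BRP columns among 10168 genes with at least 10 counts in at least 10 of them, and rho within the 12-column block is given beside. For Fos these were Arhgap5 (rho 0.78, and 0.70 within), Oaz1 (0.75 and 0.83) and Xpo1 (0.70 and 0.76). For Egr1 they included Fbxw7 (0.93 and 0.81) and its own family member Egr4 (0.92 and 0.77). For Arc they were Tagln3 (0.96 and 0.91), Kcnj2 (0.95 and 0.87) and Slitrk1 (0.92 and 0.81). For Junb they were Cacna1e (0.88 and 0.78), Pgm2l1 (0.88 and 0.57) and Dync1i1 (0.87 and 0.76). For Bdnf they were Nptx2 (0.93 and 0.92), which encodes a secreted synaptic pentraxin, Vgf (0.89 and 0.91), which encodes a neuropeptide precursor, and Sorcs3 (0.89 and 0.80). No other member was among the 3 genes most like any of these 5. Across these 5 the nearest member in place was Npas4 for Junb, in place 13 with rho 0.84, then Arc for Egr1, in place 27, and Egr1 for Arc, in place 33.

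Intronic reads come from RNA that is not yet spliced, or from genomic DNA. The 7 members of the intronic table had 28 intronic counts among 1090270 exonic and intronic counts, a share of 0.00257% (95% exact binomial interval 0.00171% to 0.00371%). Fos held 19 of them, 13 in F2 and 6 in BRP542, Arc held 8, all in BRP536, and Fosb 1 in F12, while Egr1, Npas4, Nr4a1 and Bdnf held 0. Their introns are mostly short, with 1.03 kb in Fos, 1.11 kb in Fosb, 0.678 kb in Egr1, 0.431 kb in Arc and 1.83 kb in Npas4, against 17.0 kb in Nr4a1 and 46.1 kb in Bdnf. Among the 965 genes with at least 10000 exonic counts and introns under 5 kb, 21.7% had no intronic count and the median share was 0.0369%. Among the 2210 such genes with introns of at least 40 kb, 6.61% had none and the median share was 17.4%. Bdnf, with 328517 exonic counts and none in introns, belonged to these 6.61%. All 6 genes on the same strand within 5 Mb of Bdnf that had at least 10000 exonic counts and 10 kb of introns were also at 0, so the 0 of Bdnf was shared by its neighbours. The same-strand neighbours of the other members, Nr4a1 among them, were not at 0.

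Of the other early genes of a fixed list, 39 of 40 symbols were in the table, with Ccn1 listed under its older symbol Cyr61, and 32 had a count in at least 14 columns. The highest medians over the 28 columns, which pool the blocks, were those of Rheb, a GTPase that activates mTOR, at 381 CPM, Rgs2, a regulator of G protein signalling, at 273 CPM, Gadd45g at 158 CPM, Ier5 at 114 CPM and the AP-1 gene Fosl2 at 102 CPM. The order differed within blocks, since in the 8-column BRP block Cyr61, at a median of 490 CPM, and the phosphatase gene Dusp1, at 268 CPM, stood above Rgs2 at 115 CPM and Ier5 at 97.5 CPM, and in the 12-column block Homer1, at 350.1 CPM, stood above Gadd45g at 220 CPM. The lowest of the 32 were Maff at 0.0449 CPM, Sik1 at 0.0411 CPM and Zfp36 at 0.0303 CPM. The genes of this list with at least 1000 exonic counts were also 32, but not the same 32. They include Atf3 and Klf2, which had a count in 11 and 12 columns. In this set the median of the 12-column BRP block was the higher in 16, against 39.9% of the 11732 genes. That of the 8-column block was the higher in 16, against 57.7%. Egr4 (3.44 to 169 CPM against 0) and Rgs2 (800 to 5231 CPM against 42.1 to 168 CPM) were above in every column of the 12-column block. Cyr61, which encodes a matricellular protein, was above in every column of the 8-column block, at 244 to 673 CPM against 0 to 33.4 CPM, and so was the transcription factor gene Klf4, at 3.82 to 81.7 CPM against 0 to 3.15 CPM. These were 2 of 32 in each direction, against 3.48% and 4.29% of all genes.

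Of the 22 upstream regulators and co-activators with at least 1000 exonic counts, the median was higher in the 12-column BRP block in 14 and in the 8-column block in 8, against 39.9% and 57.7% of all genes. Mef2c, which encodes a MEF2 factor, was at 357 to 1871 CPM against 0.0617 to 52.4 CPM, and Camk2a, which encodes a calcium-dependent kinase, at 28.3 to 204 CPM against 0.364 to 14.3 CPM, neither overlapping, which made 2 of 22 against 3.48% of genes. Srf, which encodes the factor of the CArG box, had medians of 71.0 CPM and 65.0 CPM, and Creb1 of 98.5 CPM and 67.1 CPM. The Bdnf receptor gene Ntrk2 had 519 to 2089 CPM in the 8-column block against 30.4 to 429 CPM in the 12-column block. It was the only 1 of 5 Bdnf receptor and processing genes with at least 1000 exonic counts that lay higher throughout the 8-column block, against 4.29% of all genes. Of these 5, 3 had the higher median in the 12-column block and 2 in the 8-column block. Of the 15 AP-1 family genes, Batf and Batf2 were at 0 in all 28 columns, and Atf3 had a median of 30.2 CPM in the 8-column block against 0 in the 12-column block, where it did not exceed 0.0409 CPM.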

How the data were processed

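Single-cell RNA-seq counts of 28 mouse cells were analysed. The counts, as deposited by the authors, are whole numbers for exons and for introns, and were not normalized. The submitters' processing notes name bcl2fastq 2.17, STAR 2.4.0 and mm10, without a role. The counter, annotation and strand setting are not given in the sources used here. Columns carry no sample label, so 0 were matched and no comparison between labelled groups or test was made. The members, the gene lists and the code blocks were chosen with earlier results of these data known. The genes named are all 10 members, the 5 highest and 3 lowest of the other early genes, and the 3 genes most like each of 5 members, of which 1 is not reported here. Other genes of the lists, the marker genes given, and the columns BRP535 and F24 of the other observations, were picked after their values were seen.

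Exonic CPM was counts over the column's exonic total, and correlations used log2(CPM + 1). GENCODE M21 on GRCm38 gave gene models and union exon lengths for 92.9% of the genes, and RefSeq gave promoter windows. Exonic totals were 838343 to 26770944. Values were computed in Python 3.11.15 (numpy 2.4.6, pandas 2.3.3, scipy 1.17.1, matplotlib 3.10.9). Other scalings came from edgeR 4.0.16 (TMM) and DESeq2 1.42.0, run in R 4.3.3. The search for similar genes was tested on simulated data. These scalings, count minimums, thinning to 800000 counts and columns left out were tried as alternatives.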

Additional observations from a re-analysis of the deposited data

How the results depend on the processing

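The median summed level, 2214 CPM over the 28 columns, stayed between 1389 CPM (exonic plus intronic counts) and 2797 CPM (DESeq2 size factors), and the median number of members with a count, 8, was 7 or 8. The median rho over the 20 BRP columns, 0.44, was 0.48 with TMM factors and 0.50 with DESeq2 size factors, and between 0.37 and 0.47 when each column was left out in turn. Within blocks, an alternative chosen after seeing the data, it was -0.024 in the 8-column block, 0.18 in the 12-column block and 0.0061 in the latter without BRP528 and BRP529. The pooled intronic share, 0.00257%, was 0.00368% without Bdnf, 0.00156% in BRP columns and 0.00720% in F columns, with a median over cells of 0. The number of members above in every column of the 12-column block, 2, was 5 without BRP528 and BRP529 (5.23% of all genes) and 4 without BRP528 (4.37%), also chosen after seeing the data. It was 2 with TMM factors and with DESeq2 size factors, which were not tried for the counts of 5 and 4. Under 150 alternatives for levels and detection of single members, 0 reversed a difference between the BRP medians and 3 moved. Block medians were held against their 95% order-statistic interval, a wide interval with 8 or 12 columns. Only the median of Jun in F columns fell outside it, at 1.85 with DESeq2 size factors against 0 to 1.27 CPM. The other moves were changes by over 1.5 times in detection of Fosb. It had a count in 14 columns, but in 9 at a minimum of 10 counts or after thinning. Of the 126 alternatives with a reported value other than 0, which include detection counts and differences of medians, 26 changed by over 1.5 times. Medians of the F block made up 14 of them, where Egr1 went from 117 CPM to between 60.9 and 732 and Fos from 880 CPM to between 461 and 3350. The cause of these changes was not tested. No paired analysis was possible because the columns carry no replicate number and match no sample. Depth limits the F block most, where 3 counts are up to 3.58 CPM.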

Other observations

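Among genes with at least 1000 exonic counts over the 28 columns, late activity-regulated and secreted genes were often highest in BRP535. BRP535 was singled out after the values were seen, so its shares are a description only. This column held the highest CPM of all 28 for 5 of the 11 genes of that list with such counts, against 4.14% of all 11732 genes. These were Nptx2 at 5099 CPM, Inhba, which encodes an activin subunit, at 4093 CPM, Nrn1, which encodes neuritin, at 1222 CPM, Vgf at 2030 CPM and the secretogranin gene Scg2 at 6757 CPM. BRP535 was also the column with the most Bdnf, 3394 CPM, and with the most Ptgs2, which encodes cyclooxygenase 2, at 706 CPM, while its Jun count was 0 and its Fos level, 92.4 CPM, was below the median of its block. Over the same 11 genes the median was higher in the 12-column BRP block in 8, against 39.9% of the 11732 genes, and in the 8-column block in 1, against 57.7%, namely Igf1, a growth factor gene, at 99.9 CPM against 0.170 CPM.

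F24 was the highest of the 28 columns for 3 of the 10 members, Fos, Junb and Egr1, against 3.27% of the 11732 genes. F24 was singled out after the values were seen, so these shares are a description only. Of the 32 other early genes with at least 1000 exonic counts, F24 was highest for 3. These were Dusp1, a phosphatase gene, at 1243 CPM, Klf6 at 510.3 CPM and Zfp36 at 386 CPM. Zfp36 encodes a protein that speeds decay of messenger RNA. Of the 12 heat shock and stress genes, F24 was highest for 1, the inducible heat shock gene Hspa1a. The level of Hspa1a in F24 was 8246 CPM, against at most 185 CPM in any BRP column. Hspa1a and Hspa1b are near-identical, so reads may be split between them, but Hspa1b did not exceed 4.88 CPM in any F column. F24 had 2116359 exonic counts and an intronic share of 63.0%. Among neuronal genes it held 21.7 CPM of Snap25, 1379 CPM of Map2, 700.3 CPM of Syt1, 3151 CPM of Gad1 and 1813 CPM of Slc32a1. The neuron markers Rbfox3, Tubb3, Nefl and Nefm were at 0 in F24, and Stmn2 was at 4.73 CPM. Of the other GABAergic markers, Npy, Dlx1 and Sst were at 56.7 to 91.7 CPM, and Gad2, Dlx2, Lhx6, Pvalb and Vip at 0 to 1.89 CPM. The part of depth and RNA quality in these values was not tested.

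Of the 12 heat shock and stress genes, Hspb1 (6.57 to 247 CPM against 0 to 3.61 CPM) and Hmox1 (1.82 to 88.2 CPM against 0 to 0.697 CPM) were higher in every column of the 8-column BRP block than in every column of the 12-column block, which made 2 of 12 against 4.29% of the 11732 genes. The median was higher in the 12-column block in 7, against 39.9%, and in the 8-column block in 5, against 57.7%.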
